A study of Oryza sativa with 12 samples.

Results

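Glutathione S-transferases are enzymes that join the tripeptide glutathione to reactive or toxic molecules. The genes for them were followed in roots of rice (Oryza sativa) seedlings of the cultivar Tainung 67 (TNG67) and of line OE1, with and without salt. Members were all genes listed at both NaCl levels whose description names a glutathione S-transferase or glutathione transferase, and 51 of 24922 genes met this rule. A further 2 such genes were listed at 150 mM NaCl only and were kept apart. RNA was sequenced from seedlings grown for 7 days and then kept for 24 h in basal medium with 0 or 150 mM NaCl. The 4 groups, wild-type TNG67 and OE1 at each NaCl level, held 3 libraries each. OE1 carries 35Sp::OsERF106MZ, an ethylene response factor gene under the constitutive cauliflower mosaic virus 35S promoter, in the TNG67 background. It was the single overexpressing line sequenced, so an effect of the transgene and one of its line cannot be told apart. Each library pooled several seedlings, and the study's methods call the 3 libraries of a group biological replicates. The labels give the tissue as roots and the study's methods as belowground tissue, whereas the deposited design text names terrestrial tissue.

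In plants, conjugation to glutathione tags herbicides, lipid peroxidation products and other electrophiles for transport into the vacuole. Some of the enzymes also reduce organic hydroperoxides, which form when salt, drought or metals disturb the redox balance of a cell. The tau and phi classes (GSTU and GSTF in gene names) are the large classes of plants, and many of their genes lie in tandem arrays. They are known as genes that respond to herbicide safeners and oxidative stress. Among the 51 members, 6 had a description with a tau name and 3 with a phi name. A further 10 were described by a glutathione S-transferase domain alone, and 32 by another name, such as a numbered GST. The RefSeq gene table matched 32 members, and its synonyms name Os01g0764000 as GSTF2, Os02g0564000 as GSTZ3, Os03g0785900 as GSTU1 and Os10g0530900 as GSTU6. GSTZ denotes the zeta class, known from other organisms for an isomerase step of tyrosine breakdown. Of the members, 27 fall into 6 runs of neighbouring identifiers, the longest of which holds 13 genes of chromosome 10. Near-identical neighbours can share reads, and how such reads were assigned is not given in the sources used here.

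The libraries held 16326661 to 22426883 reads on genes, and log2 values of replicates correlated with r of at least 0.986. OsERF106MZ (Os08g0537900) had a mean normalized count of 876 in TNG67 and 9840 in OE1 at 0 mM NaCl, and of 723 and 9934 at 150 mM NaCl. Of the 2 genes chosen to check the salt treatment, RAB16A and SalT, 2 were called higher with NaCl in TNG67 and 1 in OE1. The root genes Lsi1, Lsi2 and RCc3 were abundant at 0 mM NaCl and fell with NaCl in both genotypes. NRT2.1, also chosen as a root gene, was not listed at both NaCl levels. Leaf genes were also present. The summed normalized count of 21 genes of photosystems, chlorophyll-binding proteins and the oxygen-evolving complex was 10591 to 15084 in TNG67 and 4847 to 7498 in OE1 at 0 mM NaCl, against 1141 to 1229 and 979 to 1609 at 150 mM NaCl. In the NaCl comparison 15 of the 21 were called lower in each genotype, while 2 were called higher in TNG67 and 0 in OE1. Their part in the results for the members was not tested. In bulk tissue, fewer cells of a type and less RNA per cell cannot be told apart.

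Summed over the 51 members, glutathione S-transferase transcripts were more abundant in every library with NaCl than in any without it. Without NaCl the sum of normalized counts was 25571 ± 1426 in TNG67 and 25549 ± 309 in OE1 (mean ± SD, n = 3). With NaCl it was 37493 ± 1535 in TNG67 and 34101 ± 1665 in OE1, which is 1.47-fold and 1.33-fold the level without NaCl. The members took 0.134% to 0.147% of all normalized counts in TNG67 without NaCl and 0.192% to 0.202% with it. Normalized counts are not corrected for gene length, so they rank each gene's share of the reads and not its transcript number.

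**Figure D1:**
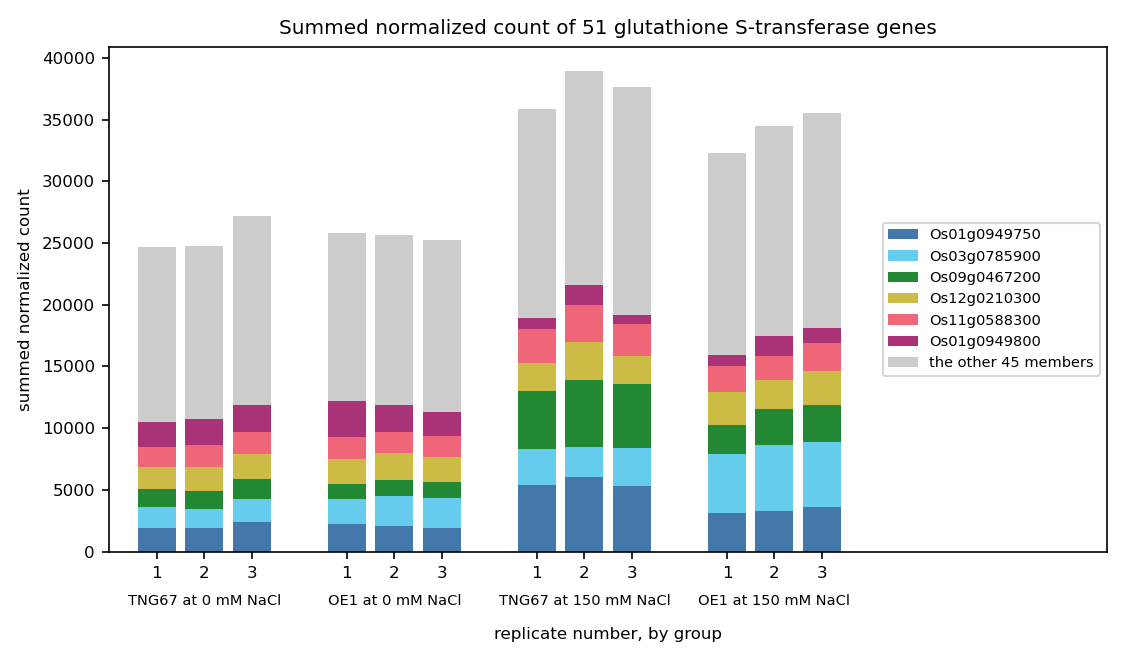
Summed normalized count of the 51 glutathione S-transferase genes (y axis) in each of the 12 libraries (x axis, replicate number by group), divided into the 6 members with the highest mean and the other 45. The 6 bars at 150 mM NaCl lie between 32267 and 38938, above the 6 at 0 mM NaCl, which lie between 24711 and 27217.

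The 6 members with the highest mean made up 42.5% to 43.8% of the summed count in the TNG67 libraries at 0 mM NaCl, and 53.0% on average at 150 mM NaCl. In OE1 they made up 44.9% to 47.4% without NaCl and 50.3% on average with it. The order among these members differed between the genotypes under NaCl. In TNG67 at 150 mM NaCl, Os01g0949750 (described as GST 28) took a mean of 14.9% of the sum, Os09g0467200 (GST 23) 13.7% and Os03g0785900 (GSTU1) 7.45%. In OE1 at 150 mM NaCl, Os03g0785900 came first with 15.0%, followed by Os01g0949750 with 9.76% and Os09g0467200 with 8.12%. Mean normalized counts over the 12 libraries spanned 15.0 to 3273 among the 51 members, with a median of 273. Every member had reads in every library, and 4 members fell under 10 reads in some library.

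The first comparison asked how the members of wild-type roots responded to NaCl. In TNG67, 19 of the 51 members rose with NaCl and 5 fell. A gene was called where limma gave an adjusted p under 0.05 and its level changed more than 2-fold, that is by over 1 on the log2 scale. Among all 24922 genes tested, 9.53% rose and 9.75% fell by the same rule (19.3% in either direction), whereas 37.3% of the members rose and 9.80% fell. The median log2 fold change was 0.46 over members and 0.00 over all genes, and 34 members were above 0. The leaf genes moved in the same comparison, their sum falling from 10591 or more to 1229 or less.

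Os01g0692100, described by its C-terminal domain alone, had the largest rise. Its normalized counts were 8.95, 6.36 and 18.2 in TNG67 at 0 mM NaCl and 159, 225 and 217 at 150 mM NaCl. In OE1 they were 18.8, 19.2 and 18.8 without NaCl and 99.9, 127 and 113 with it. All NaCl libraries exceeded all libraries without NaCl by a wide margin, although the level without NaCl in TNG67 rested on 6 to 17 reads a library. The rise was 17.7-fold in TNG67 (log2 fold change 4.15, SE 0.28, limma adjusted p = 4.72e-10) and 5.71-fold in OE1 (log2 fold change 2.51, SE 0.28, limma adjusted p = 6.87e-07). Its neighbour by identifier, Os01g0692000 (described as GSTU6), rose in TNG67 as well (log2 fold change 1.55, SE 0.21, limma adjusted p = 4.96e-06).

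Os09g0467200 and Os01g0949750 had the largest increases in normalized count in TNG67. Os09g0467200 stood at 1449, 1456 and 1645 in TNG67 and at 1213, 1285 and 1265 in OE1 without NaCl. With NaCl it stood at 4669.7, 5486 and 5248 in TNG67 and at 2393, 2947 and 2982 in OE1. No NaCl library of either genotype overlapped the libraries without NaCl, and the OE1 libraries with NaCl all lay below those of TNG67. The rise was log2 1.76, SE 0.08, limma adjusted p = 7.61e-12 in TNG67 and log2 1.14, SE 0.08, limma adjusted p = 4.6e-09 in OE1.

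Os01g0949750 had overlapping levels in the genotypes without NaCl. It was at 1899, 1921 and 2437 in TNG67 and 2255, 2049 and 1940.2 in OE1. With NaCl it reached 5422, 6073 and 5281 in TNG67 and 3102, 3266 and 3628 in OE1. The groups without NaCl overlapped and the groups with NaCl did not. The rise in TNG67 was log2 1.43, SE 0.09, limma adjusted p = 1.34e-09, and in OE1 the log2 fold change of 0.68 had an adjusted p of 1.76e-05 (limma) but stayed under the fold change threshold.

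The other 4 of the largest rises in TNG67 started from lower levels. Os07g0468100 (GST 19) was at 33.6, 58.3 and 51.5 without and 196, 188 and 247 with NaCl in TNG67, and at 34.2, 35.3 and 45.9 and 192, 231 and 193 in OE1. It showed nearly the same rise in both genotypes (log2 2.14, SE 0.20, limma adjusted p = 3.53e-08 in TNG67 and log2 2.39, SE 0.20, limma adjusted p = 1.76e-08 in OE1). Os01g0558100, described as similar to TSI-1, was at 10.1, 18.0 and 13.9 without and 54.6, 64.5 and 58.2 with NaCl in TNG67, and at 3.31, 10.1 and 4.17 and 21.99, 35.1 and 20.1 in OE1. Its libraries with NaCl also lay above those without in each genotype (log2 2.03 and 2.05, limma adjusted p = 0.0001 and 0.000156). Os10g0525400 (GSTU31) rose by log2 1.95, SE 0.20, limma adjusted p = 1.31e-07 in TNG67. Os06g0227500, read 4 to 6 times a library in TNG67 without NaCl and 27 to 30 times with it, rose by log2 2.01, SE 0.33, limma adjusted p = 4.84e-05. The other 13 members that rose in TNG67 had log2 fold changes from 1.01 to 1.74. Calls of 2 of them, near the threshold, depended on single libraries. Os01g0949700 was at log2 0.99 without TNG67 at 0 mM NaCl replicate 1. Os10g0528100 was at log2 0.90, 0.91 and 1.00 without TNG67 at 0 mM NaCl replicate 1 and TNG67 at 150 mM NaCl replicates 2 and 3, all short of the threshold.

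**Figure D2:**
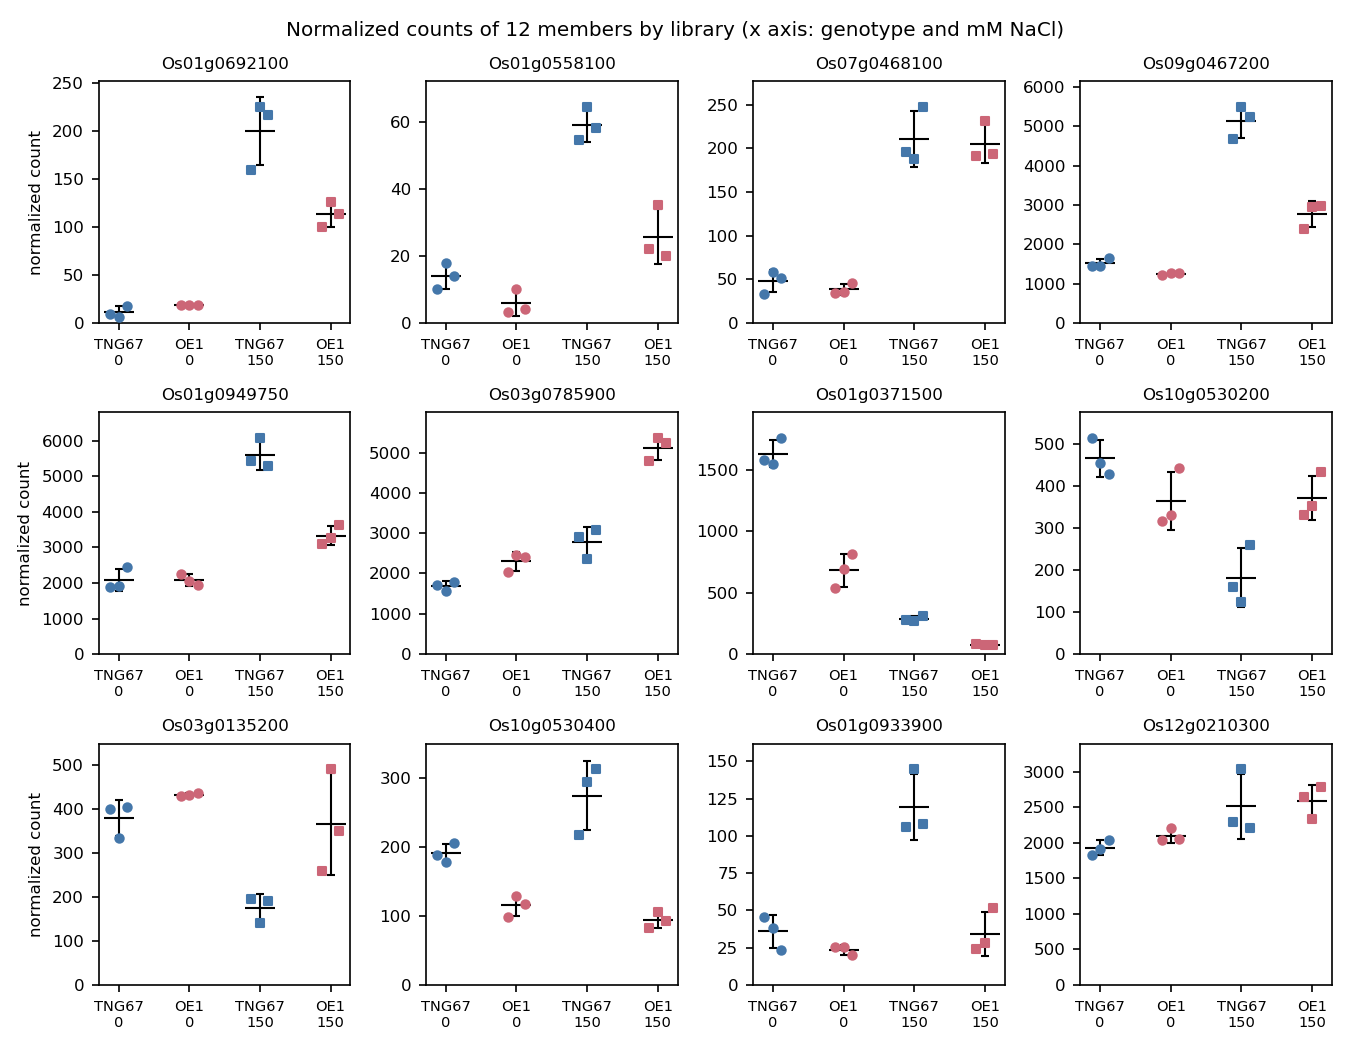
Normalized counts (y axes, each from 0) of 12 members in the 12 libraries, by genotype and NaCl concentration in mM (x axes). Points are libraries, circles without and squares with NaCl, and the bar with whiskers is the mean ± SD of 3 libraries. Os01g0692100 rises from 6.36 to 18.2 in TNG67 without NaCl to at least 159 with it, and Os01g0371500 falls in both genotypes.

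In OE1, 12 of the 51 members rose with NaCl and 1 fell, where 6.66% and 5.84% of all genes tested did so (12.5% in either direction). The median log2 fold change was 0.30 over members and 0.01 over all genes, and 37 members were above 0. The leaf gene sum fell in OE1 too, from 4847 or more to 1609 or less. Of the members that rose, 11 were called in both genotypes, 8 in TNG67 only and 1, Os03g0785900, in OE1 only. A call in one genotype and not in the other does not show that the responses differ, and that difference was tested as an interaction. Besides the members above, Os01g0369700 (GST 8), Os10g0525500 (described as glutathione transferase31) and Os10g0530900 (GSTU6) rose in both, by log2 1.34, 1.37 and 1.40 in TNG67 and by log2 1.39, 1.22 and 1.32 in OE1 (limma adjusted p at most 1.36e-07). The call of Os06g0227500 in OE1 (log2 1.04) was lost without OE1 at 0 mM NaCl replicate 3 (0.71) and without OE1 at 150 mM NaCl replicates 2 (1.00) and 3 (0.996).

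Os03g0785900, the tau class gene GSTU1, was the most abundant member of OE1 roots under NaCl. Without NaCl it was at 1713, 1567 and 1797 in TNG67 and 2031, 2457 and 2399 in OE1. With NaCl it was at 2898, 2368 and 3081 in TNG67 and 4779, 5351 and 5239.9 in OE1. Within each NaCl level every OE1 library exceeded every TNG67 library, and within each genotype every NaCl library exceeded those without. The NaCl response was log2 1.16, SE 0.09, limma adjusted p = 3.94e-08 in OE1 and log2 0.71, SE 0.09, limma adjusted p = 6.48e-06 in TNG67, where it passed the test but not the fold change threshold. The difference between the responses of the genotypes was log2 0.45, SE 0.13, limma adjusted p = 0.0378. Leaving out any 1 of 7 libraries raised that p to between 0.0511 and 0.0960.

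**Figure D3:**
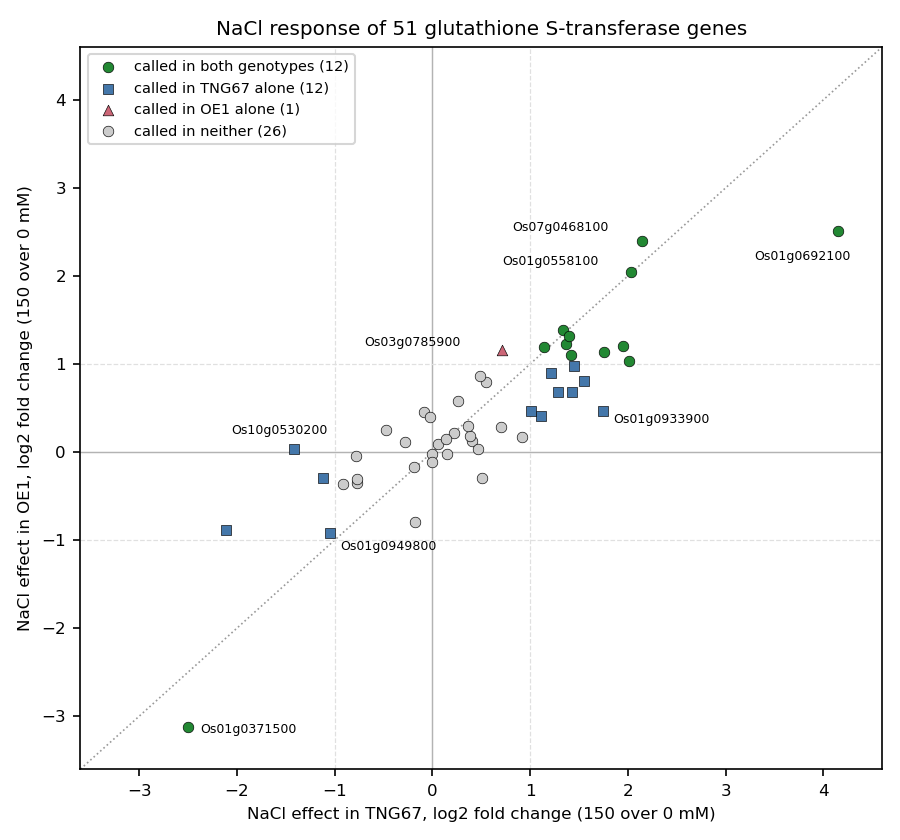
Log2 fold change with NaCl (150 over 0 mM) of each of the 51 members in TNG67 (x axis) and in OE1 (y axis), with symbols for the genotypes in which it was called. The dotted line marks equal responses and the dashed lines the fold change threshold. 12 members were called in both genotypes, 12 in TNG67 alone and 1 in OE1 alone.

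The members that fell with NaCl were fewer. Os01g0371500, whose description names no class, had the largest fall in both genotypes. Its normalized counts were 1585, 1554 and 1759 in TNG67 and 541, 694 and 813 in OE1 without NaCl. With NaCl they were 278, 271 and 312 in TNG67 and 77.9, 77.3 and 73.8 in OE1. The 4 groups did not overlap, and the gene was lower with NaCl and lower in OE1 throughout. The NaCl effect was log2 -2.50, SE 0.12, limma adjusted p = 5.02e-12 in TNG67 and log2 -3.12, SE 0.12, limma adjusted p = 8.62e-13 in OE1. It was the only member called lower with NaCl in OE1.

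Another member described as similar to TSI-1 moved the other way from Os01g0558100. Os10g0530200 was at 514, 456 and 429 without and 159, 125 and 260.4 with NaCl in TNG67, and at 318, 332 and 443 and 332, 351 and 432 in OE1. The TNG67 groups did not overlap, whereas those of OE1 did. It fell in TNG67 (log2 -1.42, SE 0.23, limma adjusted p = 0.000252) and had a log2 fold change of 0.04 in OE1 (limma adjusted p = 0.926). Os03g0595600, described by its N-terminal domain, fell from 17 to 40 reads a library to 3 to 11 in TNG67 (log2 -2.11, SE 0.50, limma adjusted p = 0.00159). Os01g0949800 (GST 28) was at 2038, 2116 and 2196 without and 857, 1588 and 789 with NaCl in TNG67, and at 2935, 2138 and 1916 and 891, 1597 and 1239.6 in OE1. In both genotypes replicate 2 was the highest library with NaCl. Its fall in TNG67 (log2 -1.05, SE 0.30, limma adjusted p = 0.0175) was no longer called without TNG67 at 150 mM NaCl replicate 1 (-0.92) or replicate 3 (-0.86), nor by edgeR (-0.99) or DESeq2 (-0.97). Os03g0135200 (GST 9) fell in TNG67 by log2 -1.12, SE 0.19, limma adjusted p = 0.000204, and by 0.96 without TNG67 at 150 mM NaCl replicate 2, which is under the threshold.

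The second comparison asked which members differed between OE1 and TNG67. At 0 mM NaCl, 2 of the 51 members were lower in OE1 and 0 were higher, where 2.89% and 2.37% of all genes tested were called (limma; 5.26% in either direction). At an unadjusted p below 0.05, 12 members were higher in OE1, and edgeR and DESeq2 also called 0 higher. With no fold change threshold 10 members passed as higher and 7 as lower, so most differences at 0 mM NaCl were smaller than 2-fold. Shares of all genes by these looser rules are not given here, so the counts have no background. The leaf gene sum was lower in OE1 in this comparison. Os01g0371500 was the member with the larger difference, at 541 to 813 in OE1 and 1554 to 1759 in TNG67 (log2 -1.28, SE 0.12, limma adjusted p = 4.49e-07). The call of Os01g0558100 (log2 -1.22, SE 0.36, limma adjusted p = 0.0203) rested on 3 to 10 reads a library in OE1 against 9 to 17, and its groups overlapped. It was lost in edgeR, in DESeq2, in the fit of the 6 libraries at 0 mM NaCl, and without TNG67 at 0 mM NaCl replicate 2 (-1.04) or OE1 at 0 mM NaCl replicate 1 (-0.95) or replicate 3 (-1.08).

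At 150 mM NaCl, 4 members were lower and 3 higher in OE1, where 3.49% and 2.44% of all genes tested were called (5.93% in either direction). The median log2 difference was -0.04 over members and -0.00 over all genes. The leaf gene sums of the groups overlapped at 150 mM NaCl, with 4 of the 21 leaf genes higher in OE1. Of the 3 root genes, RCc3 was higher in OE1 at this level, at 6826 to 9221 against 2221 to 2914 in TNG67 (log2 1.64, limma adjusted p = 1.49e-07), while Lsi1 and Lsi2 had log2 differences of 0.54 and 0.63, under the fold change threshold. The part of root and leaf genes in the differences between members was not tested. These differences share the TNG67 libraries at 150 mM NaCl with the NaCl responses of TNG67 above. The largest difference was that of Os01g0371500, 3.72-fold lower in OE1 (log2 -1.89, SE 0.12, limma adjusted p = 2.04e-09). Os01g0933900, described as similar to glutathione transferase III(B), was at 106, 145 and 108 in TNG67 and 24.0, 28.1 and 51.3 in OE1. Without NaCl it was at 45.9, 38.2 and 23.6 and 25.4, 25.2 and 19.8. Its OE1 libraries with NaCl overlapped the libraries without NaCl, and lay below all 3 of TNG67 with NaCl (log2 -1.82, SE 0.29, limma adjusted p = 0.00012).

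Os10g0530400, described as similar to Cla47, was lower in OE1 at both NaCl levels. Without NaCl it was at 189, 179 and 206 in TNG67 and 99.3, 129 and 118 in OE1. With NaCl it was at 217, 294 and 313 and 82.9, 106 and 92.3. The genotypes did not overlap at either level, and the difference was log2 -0.73, SE 0.15, limma adjusted p = 0.0021 without and log2 -1.53, SE 0.15, limma adjusted p = 9.24e-07 with NaCl, only the latter past the fold change threshold. Os01g0558100 was lower in OE1 with NaCl as well (log2 -1.21, SE 0.36, limma adjusted p = 0.0189). That call was lost without TNG67 at 150 mM NaCl replicate 2 (-1.14), OE1 at 150 mM NaCl replicate 1 (-1.12) or replicate 3 (-1.06).

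The 3 members higher in OE1 at 150 mM NaCl were Os10g0530200, Os03g0135200 and Os09g0544400, the last described as glutathione transferase16. Os03g0135200 was at 195, 139.7 and 191 in TNG67 and 258, 489 and 348 in OE1, and Os09g0544400 at 194, 118 and 160.3 and 403, 294 and 282. The groups did not overlap, but the libraries of each group were widely spread. The log2 differences were 1.09, 1.02 and 1.06 (limma adjusted p = 0.00483, 0.00144 and 0.00036). Without TNG67 at 150 mM NaCl replicate 2, the lowest library of all 3 genes, they were 0.85, 0.87 and 0.87 and none was called. Each was also lost without 1 OE1 library at 150 mM NaCl, Os10g0530200 without replicate 3 (0.98), Os03g0135200 without replicate 2 (0.79) and Os09g0544400 without replicate 1 (0.90).

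**Figure D4:**
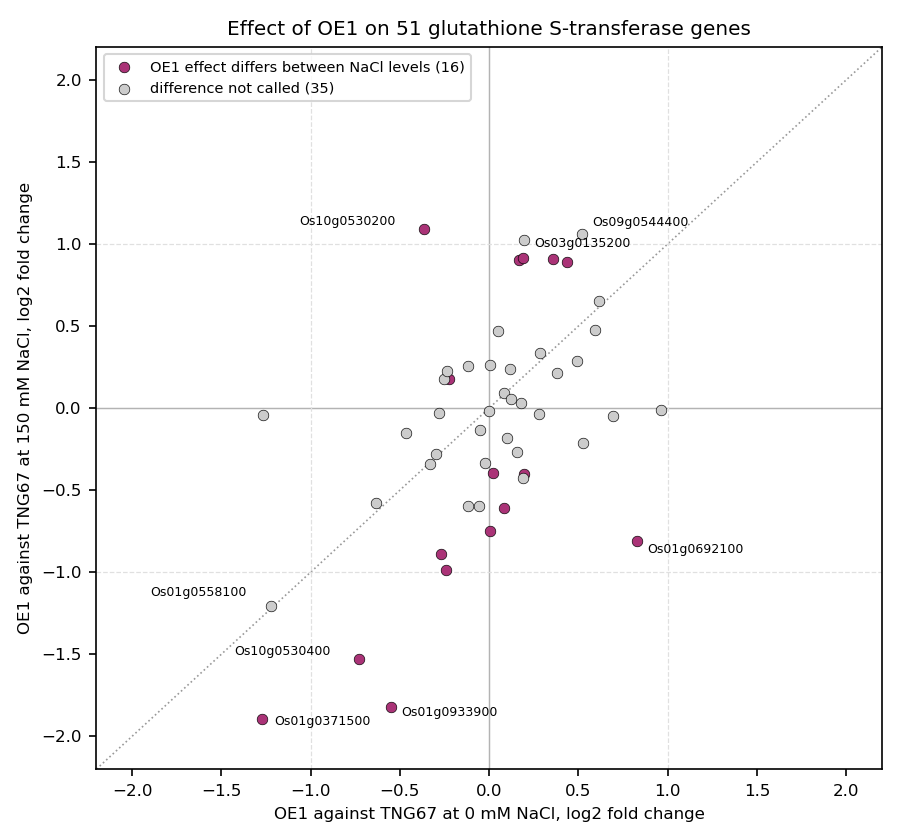
Log2 fold change of OE1 over TNG67 for each of the 51 members at 0 mM NaCl (x axis) and at 150 mM NaCl (y axis). Purple marks the 16 members whose OE1 effect differed between the NaCl levels, the dotted line equal effects and the dashed lines the fold change threshold. Os01g0371500 lies lowest, at -1.28 and -1.89.

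The third comparison tested whether the effect of OE1 differed between the NaCl levels, which is the same as whether the NaCl response differed between the genotypes. It did for 16 of the 51 members at a limma adjusted p below 0.05, where 11.4% of all genes tested passed. The OE1 effect was more negative at 150 mM NaCl for 10 members (6.17% of all genes) and more positive for 6 (5.2%). In 14 of the 16 the NaCl response was smaller in size in OE1 than in TNG67, the exceptions being Os01g0371500 and Os03g0785900. Among the 2833 genes that passed over the whole table, 84.4% also had the smaller response in OE1, so a share of 87.5% among members was near that background. Of the 21 leaf genes, 9 had a more positive and 1 a more negative OE1 effect under NaCl. The root gene RCc3 passed too (log2 1.54, limma adjusted p = 7.17e-05), and Lsi1 (0.41) and Lsi2 (0.46) did not. The part of these genes in the differences between members was not tested.

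Among the 6 members with the smallest p, 4 had a smaller increase with NaCl in OE1. The interaction was log2 -0.75, SE 0.13, limma adjusted p = 0.00217 for Os01g0949750, log2 -0.62, SE 0.12, limma adjusted p = 0.00313 for Os09g0467200 and log2 -1.64, SE 0.39, limma adjusted p = 0.0121 for Os01g0692100. The fourth, Os04g0435500, described by its C-terminal domain, was at 224, 196 and 283 without and 447, 438 and 435 with NaCl in TNG67, and at 193, 201 and 193 and 207, 213 and 246 in OE1. The TNG67 libraries with NaCl lay above those of the other 3 groups, which spanned 193 to 283 (interaction log2 -0.75, SE 0.17, limma adjusted p = 0.00934). The NaCl effect of Os04g0435500 was called in neither genotype, at log2 0.92 in TNG67 and 0.18 in OE1 (limma adjusted p = 2.99e-06 and 0.271). The other 2 fell with NaCl in TNG67 by less than 2-fold and did not pass the test in OE1. Os10g0543800 (GST 11) was at 372, 332 and 403 without and 264, 259 and 271 with NaCl in TNG67, and at 371, 438 and 456 and 451, 582 and 473 in OE1 (interaction log2 0.72, SE 0.15, limma adjusted p = 0.00658). Os03g0135100, the phi class gene GSTF15, was at 227, 238 and 241 without and 129.6, 134 and 148 with NaCl in TNG67, and at 252, 247 and 296 and 213, 290.2 and 272 in OE1 (interaction log2 0.73, SE 0.18, limma adjusted p = 0.0121). For both, TNG67 with NaCl lay below all the other libraries. These 6 interactions, and those of Os10g0530200 (log2 1.46, SE 0.33, limma adjusted p = 0.0163) and Os11g0588300 (log2 -0.42, SE 0.10, limma adjusted p = 0.0141), were the 8 that passed in every alternative tried. The other 8 lost the call when some single library was left out.

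Members with neighbouring identifiers had NaCl effects of 1 direction in TNG67 in 3 of the 6 runs, namely the run of 4 on chromosome 3 and the pairs Os01g0692000 with Os01g0692100 and Os12g0210200 with Os12g0210300. The other 3 runs held members on both sides of 0. These are counts of signs, and 50.0% of all genes tested lay above 0, so pairs can often share a direction by sign alone. Os12g0210200 and Os12g0210300, at log2 0.14 and 0.37 (limma adjusted p = 0.0595 and 0.00546), were not called. In the run of 4 on chromosome 3, Os03g0134900 to Os03g0135300 (described as GSTF14, GSTF15, GST 9 and GST 10), all 4 were lower with NaCl in TNG67, by log2 -1.12 to -0.77, and 1 was called. In OE1 the 4 log2 fold changes were -0.36 to -0.04 and none was called. At 150 mM NaCl all 4 were higher in OE1, by log2 0.47 to 1.02. The interaction passed for Os03g0134900 and Os03g0135100. Os03g0134900, for example, was at 739, 703 and 621 without and 346, 341 and 404 with NaCl in TNG67, and at 892, 806 and 945 and 579.6, 781 and 701 in OE1. Its call in the interaction (0.55, limma adjusted p = 0.0234) was lost when any 1 of 7 libraries was left out, at p between 0.0502 and 0.0682. Whether these neighbours share reads was not tested, so the 4 values may not be independent.

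In the run of 4 on chromosome 1, Os01g0949700 to Os01g0950000, 3 members rose with NaCl in TNG67 and Os01g0949800 was lower. Os01g0949750 and Os01g0949800 carry nearly the same description and lie beside each other by identifier. Their counts in TNG67 were alike without NaCl, at 1899 to 2437 and 2038 to 2196, and apart with it, at 5281 to 6073 and 789 to 1588. Whether these 2 annotations overlap, and whether reads were counted by strand, is not given in the sources used here. In the run of 13 on chromosome 10, 7 members rose with NaCl in TNG67 and 1, Os10g0530200, fell. In OE1 4 members of this run rose. The first 3 and the last 2 by identifier all rose in TNG67, by log2 1.28 to 1.95, and the 5 that were not called lay between them.

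**Figure D5:**
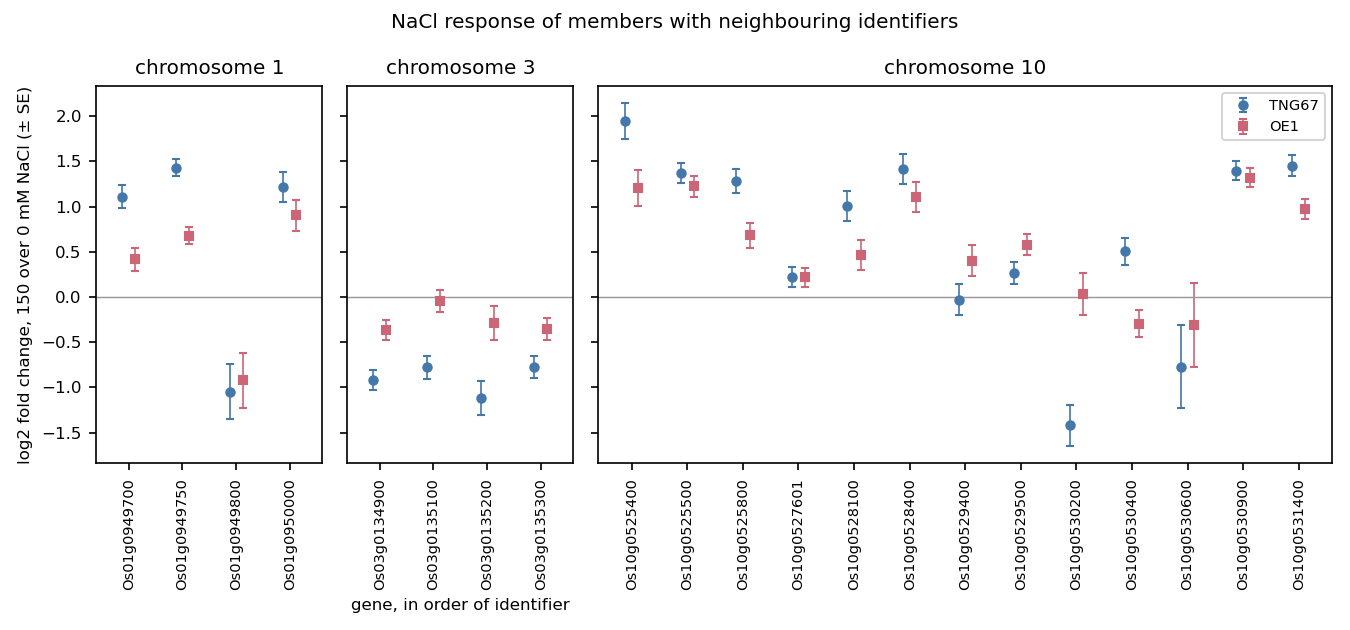
Log2 fold change with NaCl (y axis, 150 over 0 mM, ± SE of the limma fit) in TNG67 (blue circles) and OE1 (red squares) for members in the 3 longest runs of neighbouring identifiers (x axis, in order of identifier). All 4 members of chromosome 3 lie below 0, while those of chromosome 10 range from -1.42 to 1.95 in TNG67.

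Of the 51 members, 18 were called in none of the comparisons. They include Os12g0210300 (GST 18), the fourth most abundant member, at 1829.9, 1919.6 and 2045 without and 2287, 3034 and 2216 with NaCl in TNG67, and at 2035, 2212 and 2054 and 2642, 2335 and 2780.0 in OE1. Within each genotype its libraries with NaCl lay above those without, by less than the fold change threshold. The log2 NaCl effect was 0.37, SE 0.10, limma adjusted p = 0.00546 in TNG67 and 0.30, SE 0.10, limma adjusted p = 0.0267 in OE1. A narrow range, chosen for mention after the values were seen, was that of Os01g0764000 (GSTF2), a phi class gene, whose 12 libraries lay between 245 and 286. Its NaCl effect was log2 -0.01 (SE 0.10) in TNG67 and -0.02 (SE 0.10) in OE1. By the class name in the description, 3 of the 6 tau members rose with NaCl in TNG67, while the 3 phi members Os01g0764000, Os03g0134900 and Os03g0135100 had log2 fold changes of -0.01, -0.92 and -0.78. The other members, described by another name or a domain, held the remaining calls, 16 higher and 5 lower. These members include Os03g0785900 and Os10g0530900, which RefSeq synonyms and not the descriptions name as GSTU1 and GSTU6. Description names were given to too few members to compare the classes.

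Other genes matched by description to glutathione metabolism were tested in the same fit. Of 46 such genes, 1 rose and 3 fell with NaCl in TNG67, that is 2.17% and 6.52% against 9.53% and 9.75% of all genes tested. In OE1 1 rose and 4 fell, that is 2.17% and 8.70% against 6.66% and 5.84%. Each of the 4 falls in OE1 was lost in 1 to 4 alternatives. Some of the 12 glyoxalase entries were described only by a domain shared by glyoxalases, bleomycin resistance proteins and dioxygenases, which does not establish a use of glutathione. They include Os01g0173600, which fell in both genotypes, and Os04g0538900, which fell in OE1. The median log2 fold changes over the 46 genes were 0.15 in TNG67 and 0.09 in OE1. None of the 3 genes of glutathione synthesis, the 3 glutathione reductases, the 7 glutathione peroxidases or the dehydroascorbate reductase was called in either NaCl comparison by limma, edgeR or DESeq2. At an unadjusted p below 0.05, 9 of these 14 were higher and 1 lower with NaCl in TNG67, and 6 were higher in OE1. The share of all genes at that p is not given here, so these counts do not show a response particular to the 14. The reductases return oxidized glutathione to its reduced form, and Os02g0813500, the cytosolic one, had a log2 fold change of 0.50 in TNG67 and 0.27 in OE1. The peroxidases, which use reducing power to remove hydroperoxides, had median log2 fold changes of 0.72 in TNG67 and 0.32 in OE1. The interaction passed for 3 of the 7 peroxidases, all with a more negative OE1 effect under NaCl, where 11.4% of all genes tested passed. Os03g0358100 and Os04g0556300 passed in every alternative, whereas Os11g0284900 (log2 -0.56, limma adjusted p = 0.0452) did not pass in 11 of 18, namely 10 of the 12 fits without 1 library (adjusted p up to 0.107) and scaling by total reads (0.0707). The gene that rose was Os03g0277500, described as similar to a glyoxalase family protein (log2 2.28 in TNG67 and 1.84 in OE1). That description alone does not establish a use of glutathione either. At 0 mM NaCl the gene was called higher in OE1, a call lost in 6 of 18 alternatives. It is a low gene, with mean normalized counts of 4.01 and 10.2 without NaCl. Os01g0151500, described as gamma-glutamyl transpeptidase GGT4, of the enzymes that break glutathione conjugates down, fell in TNG67 (log2 -1.80). Os05g0196100 is described as a multidrug resistance associated protein, of the class of pumps that carry glutathione conjugates into the vacuole. It was the 1 gene matched by description for such transport, so pumps described in other words were not covered. Its log2 fold changes with NaCl were 0.06 in TNG67 and 0.08 in OE1.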

How the data were processed

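Trimmomatic 0.38 (trimming) and HISAT2 2.1.0 (alignment to IRGSP-1.0) were used upstream, per the labels and the study's methods. The signal values that the authors deposited, in 1 table per NaCl level, are normalized counts (reads scaled by 1 size factor per library). The tool that counted, its use of strand and the filter on listed genes are not given in the sources used here. Every value was a whole multiple of 1 read within 0.001 reads, and median-ratio factors computed over the 12 libraries came within 0.0916% of the authors' size factors, so both tables were treated as on 1 scale. The tables list 25580 and 25953 genes, of which 24922 are in both; mean columns were not used for tests.

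Log2(normalized count + 1) was fitted with limma 3.58.1 in R 4.3.3 over all 24922 genes and 12 libraries, with 4 group means, a mean-variance trend and robust moderation. P-values were adjusted by Benjamini-Hochberg; a call needed an adjusted p under 0.05 with a change of more than 1 on the log2 scale, and an interaction the adjusted p alone. P-values weigh a difference against the spread between libraries of a group, shared over the 4 groups and moderated across genes. They do not cover the spread between transgenic lines. Fold changes are on the log2(value + 1) scale, which understates those of low genes. The test was tested on simulated data, with changes well beyond the fold change threshold in genes with a mean of at least 20. Smaller changes, and changes in lower genes, were not covered. Alternatives were edgeR 4.0.16 and DESeq2 1.42.0 on the recovered reads, scaling by total reads, a pseudocount of 0.1, a mean of at least 20, no fold change threshold, a block for replicate number, 6-library fits and fits without 1 library.

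The members and lists were chosen with earlier results of these data known. Named with values were the 6 most abundant members, up to 6 called members without overlap per direction and comparison, and the 6 smallest interaction p; others named illustrate runs, classes or counts. Gene lists were matched by description, and RefSeq names come from assembly ASM3414082v1. Promoter and protein sequences were not analysed here.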

Additional observations from a re-analysis of the deposited data

Results flagged for a closer look

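For 16 members the OE1 effect at 150 mM NaCl differed from that at 0 mM NaCl in the limma interaction test (adjusted p below 0.05), and each is listed by that difference on the log2 scale. Those that held in every alternative were Os01g0692100 (-1.64), Os01g0949750 (-0.75), Os04g0435500 (-0.75), Os09g0467200 (-0.62), Os11g0588300 (-0.42), Os03g0135100 (0.73), Os10g0543800 (0.72) and Os10g0530200 (1.46). The last was lower with NaCl in TNG67 and near its level without NaCl in OE1.

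The remaining 8 lost the call when at least 1 library was left out. Os01g0949700 (-0.70) lost it without OE1 at 0 mM NaCl replicate 1 (-0.61), and Os01g0371500 (-0.62) without TNG67 at 0 mM NaCl replicate 1 (-0.60) or 2 (-0.59) or OE1 at 0 mM NaCl replicate 3 (-0.48). Os10g0530400 (-0.80) lost it with 5 of the 12 libraries left out in turn, and Os03g0134900 (0.55) and Os03g0785900 (0.45) with 7 each. Os01g0933900 (-1.27), Os06g0168000 (0.40) and Os10g0525800 (-0.60) lost it with 9 each, and their values without 1 library ranged from -1.59 to -1.01, from 0.33 to 0.47 and from -0.68 to -0.48. The corresponding ranges were -0.96 to -0.70 for Os10g0530400, 0.46 to 0.67 for Os03g0134900 and 0.34 to 0.53 for Os03g0785900. Os01g0933900 was also lost in edgeR (adjusted p = 0.0871) and in DESeq2 (adjusted p = 0.0646). In limma it was lost with scaling by total reads (adjusted p = 0.0576) and a pseudocount of 0.1 (0.0559). Os10g0525800 was lost in the same 2 limma settings (adjusted p = 0.0865 and 0.0517).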

How the results depend on the processing

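Of 62 calls of members, 44 held in every alternative with the fold change threshold, 18 were lost in at least 1 and none reversed. With no fold change threshold, 29 members rose and 10 fell in TNG67 and 23 rose and 5 fell in OE1. By that rule 10 were higher and 7 lower in OE1 at 0 mM NaCl, and 12 were higher and 15 lower at 150 mM NaCl. The shares of all genes that pass by that rule are not given here, so these counts have no background. Under a pseudocount of 0.1, 1 member was called higher in OE1 at 0 mM NaCl. At that level edgeR, DESeq2 and the 6-library fit each called 1 member lower. With each library left out in turn, members that rose numbered 17 to 20 and those that fell 4 to 5 in TNG67, and 11 to 13 and 1 to 2 in OE1. Members higher in OE1 numbered 0 to 1 at 0 mM NaCl and 0 to 4 at 150 mM NaCl, and members lower 1 to 3 and 3 to 4. The count of 0 at 150 mM NaCl was that without TNG67 at 150 mM NaCl replicate 2. Interactions numbered 3 to 6 with a more positive and 7 to 10 with a more negative OE1 effect under NaCl, the 3 arising without TNG67 at 0 mM NaCl replicate 1, TNG67 at 150 mM NaCl replicate 1 or 2, or OE1 at 150 mM NaCl replicate 2 or 3. Same-numbered libraries did not deviate together (correlations of -0.155 to 0.0462 over 18 pairs), so the numbers give no pairing. A replicate block left the counts of the other comparisons as they were (19 members rose in TNG67) and gave 5 and 8 interactions in place of 6 and 10, without Os01g0933900 (limma adjusted p = 0.0744), Os06g0168000 (0.0586) and Os10g0525800 (0.0667). Scaling by total reads moved the median log2 value of all genes by at most 0.08. With under 10 reads in some library, 4 members were limited by depth, and the filter of a mean of at least 20 tested 49 members.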

Other observations

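Of the 2 glutathione S-transferase genes listed at 150 mM NaCl only, Os01g0371400 (described as similar to gstf2) had 15, 10 and 7 reads in TNG67 and 0, 1 and 2 in OE1. The groups did not overlap, and in a limma fit of the 6 libraries over all genes of that table the log2 difference was -2.59 (SE 0.58, adjusted p = 0.00528). The filter on listed genes is not given, so this gene may be listed through its TNG67 reads alone. That p-value is therefore not taken as evidence of a difference. Its identifier is next to that of Os01g0371500, which was also lower in OE1 at 150 mM NaCl. The other gene, Os10g0531300, had 9, 7 and 2 reads in TNG67 and 5, 5 and 6 in OE1, with a log2 difference of 0.03 (adjusted p = 0.976). Both levels are too low to detect moderate differences at this depth.

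Some members varied widely between replicates of 1 group. Os10g0530600 (GST 20) was at 27.3, 19.5 and 82.0 in TNG67 at 150 mM NaCl and at 72.7, 85.9 and 36.5 without NaCl, and the groups overlapped. Os10g0530200, of the same run of identifiers, was also highest in replicate 3 of TNG67 at 150 mM NaCl, at 159, 125 and 260.4.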
